A study of Homo sapiens with 12 samples.

Results

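The genes described here are the ones that carry glucose into the cell, break it down to pyruvate and lactate, store it as glycogen and admit pyruvate to the mitochondrion. They were chosen by symbol from a list of 35 genes proposed with earlier results of these data known, and kept where the mean level over the 12 libraries was 0.5 or more in CPM, counts scaled to the library total. The rule kept 34 of the 35 listed genes, out of 23615 genes in the table. The lowest genes inside the threshold were SLC2A3, at a mean of 7.25 CPM, and ALDOC, at 9.52 CPM, and the only listed gene outside it was SLC16A3, the lactate exporter MCT4, at 0.475 CPM. All 34 also passed the filter on low counts that the tests used, which left 16005 genes.

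The libraries were made from HEK293T cells, a human embryonic kidney cell line, grown in medium that held sodium pyruvate. A pLKO lentiviral vector carried either a hairpin against the RNA-binding protein HuR (the line shHuR) or a control hairpin (shControl), and both lines were selected with puromycin. Each line is a population made with 1 hairpin. An effect of less HuR therefore cannot be told apart from an effect of that hairpin or of that selected population. Each line was left untreated, given 25 µM of HNE(alkyne), a tagged version of 4-hydroxynonenal (HNE), a reactive aldehyde that forms when membrane lipids are oxidised, for 18 h, or given 225 µM hydrogen peroxide (H2O2) for 18 h, with 2 libraries for each of the 6 combinations. The labels call these biological replicates and name no culture or day for them, so the p-values measure only the spread between these libraries.

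In glycolysis glucose enters through facilitative transporters of the SLC2A family, is trapped by hexokinase, committed by phosphofructokinase and split into triose phosphates that are oxidised to pyruvate. Pyruvate is then either reduced to lactate by lactate dehydrogenase or carried into the mitochondrion, where the pyruvate dehydrogenase complex turns it into acetyl-CoA and the pyruvate dehydrogenase kinases hold that complex in check. HuR, the product of ELAVL1, binds AU-rich and U-rich stretches of messenger RNA and is known for stabilising many of its targets, and many genes of glycolysis are known targets of the hypoxia-inducible factors (HIF), which bind DNA at a core ACGTG or GCGTG.

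Total counts were 24855946 to 29907258 per library. ELAVL1, the target of the hairpin, lay at 86.0 to 99.4 CPM in shControl and at 69.3 to 74.5 CPM in shHuR, with no overlap. Its log2 fold change was -0.38 (SE 0.0405, adjusted p = 2.60e-06 by edgeR's quasi-likelihood test). The RNA of ELAVL1 was thus lowered only in part, and HuR protein was not measured in these libraries. VIM and KRT18, which HEK293 cells are known to express, lay at 345 to 521 CPM and at 30.3 to 40.4 CPM. The leukocyte gene PTPRC had 0 to 2 counts and the liver gene ALB 0 to 6 counts in a library. Also looked at were KRT8, at 6.69 to 11.5 CPM, and the collagen gene COL1A1, at 2.17 to 4.86 CPM (63 to 128 counts). A log2 fold change between the lines is given below as shHuR minus shControl, SE is its standard error, and adjusted p-values are from edgeR's quasi-likelihood test with Benjamini-Hochberg adjustment over all genes tested, with a threshold of 0.05.

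Promoter sequences are shown for 3 genes picked because they were lower in shHuR and have a window that holds the ACGTG core, so they are not typical of the list. Each runs 5′ to 3′ on the gene's strand across the transcription start, with most of the window before it (RefSeq, GRCh38.p14), with ACGTG and its reverse complement CACGT in capitals. The window of PGK1 is chrX:78103998-78104297 on the plus strand, that of LDHA, the first of its 2 windows, is chr11:18394313-18394612 on the plus strand, and that of PDK1, the second of its 2 windows, is chr2:172555840-172556139 on the plus strand.
PGK1: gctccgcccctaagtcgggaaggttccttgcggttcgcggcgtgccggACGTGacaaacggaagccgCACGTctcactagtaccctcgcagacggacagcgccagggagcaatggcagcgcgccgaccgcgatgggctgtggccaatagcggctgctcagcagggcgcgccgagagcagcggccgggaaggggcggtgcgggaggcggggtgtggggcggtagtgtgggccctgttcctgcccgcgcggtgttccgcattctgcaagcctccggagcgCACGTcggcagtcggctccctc
LDHA: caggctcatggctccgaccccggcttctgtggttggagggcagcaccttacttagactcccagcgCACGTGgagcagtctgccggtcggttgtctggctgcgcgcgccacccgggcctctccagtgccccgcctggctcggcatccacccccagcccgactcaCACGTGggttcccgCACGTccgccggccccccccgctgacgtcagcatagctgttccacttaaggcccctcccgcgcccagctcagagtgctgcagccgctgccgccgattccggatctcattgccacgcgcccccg
PDK1: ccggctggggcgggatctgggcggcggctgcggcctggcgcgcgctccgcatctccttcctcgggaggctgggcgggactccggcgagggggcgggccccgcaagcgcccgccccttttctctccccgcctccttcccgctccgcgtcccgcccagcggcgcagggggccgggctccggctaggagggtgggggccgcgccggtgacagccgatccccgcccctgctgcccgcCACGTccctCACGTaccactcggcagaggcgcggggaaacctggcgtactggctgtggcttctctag
On both strands together the core was found 3 times in the window of PGK1, 5 times in that of LDHA and 2 times in that of PDK1. LDHA and PDK1 each have another window in the table, and it holds the core 0 times in both genes. The E-box CACGTG holds the core on both strands and counts once for each strand, and LDHA has such boxes. The promoter table matched 31 of the 34 genes, and PFKFB2, SLC16A1 and SLC2A3 were not matched. Of the 31 matched genes 20 (64.5%) had ACGTG in at least 1 window, against 28.6% of all genes of the count table that were matched. The core was in 24 of the 59 windows of these genes (40.7%), against 23% of the windows of genes in the count table and 21.4% of all 35116 windows, each of the same length. GCGTG, the other core, was in 27 of the 59 windows (45.8%), near the 42.8% of the windows of genes in the count table, and in 36.5% of all windows. By gene GCGTG was in at least 1 window of 23 of the 31 matched genes (74.2%), against 50.3% of the matched genes of the count table. These 31 genes have 59 windows, and a gene with more windows has more chances to hold a core. Some windows of a gene overlap, and in PFKM the same copy of ACGTG is counted in more than 1 window. The genes of the count table include genes too low to be tested, and the base composition of the windows was not taken into account. Among the matched genes that were lower in shHuR over all treatments, 15 of 21 (71.4%) had ACGTG, and among the other matched genes 5 of 10 (50%). The lower genes without it were SLC2A1, HK1, PFKL, PFKFB4, ENO1 and PKM. Of the genes that were higher, PDK2 had it and MPC1 did not. A link between the core and the difference of the lines was not tested. A match describes the letters in the window and does not show that a factor was bound there.

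Most genes of the pathway were lower in shHuR than in shControl. Over all treatments 22 of the 34 were lower and 2 were higher, against 15.9% of all genes tested that were lower, 14.1% that were higher and 29.9% in either direction. The lower genes were found at uptake (SLC2A1, SLC2A3), at several enzyme steps between hexokinase and lactate dehydrogenase, in the pyruvate dehydrogenase kinases (PDK1, PDK3), in glycogen metabolism (PGM1, GBE1) and in 1 subunit of pyruvate dehydrogenase (PDHB), and the 2 higher genes were PDK2 and MPC1. Along that stretch GPI, PFKFB2, TPI1, PGAM1, BPGM and LDHB did not pass, nor did SLC16A1, PDHA1, DLAT and MPC2 elsewhere. The median log2 fold change of the 34 genes was -0.18, and 27 of them were negative, beside a median of 0.00 over all genes tested. All 6 shHuR libraries lay below all 6 shControl libraries for 11 of the 34 genes, against 6.84% of all genes tested. Those 11 were SLC2A1, SLC2A3, HK1, PFKFB3, PFKFB4, PGK1, ENO1, ENO2, LDHA, PDK1 and PGM1. Together the 34 genes took 1.46% to 1.49% of the counts of a shControl library (mean 1.48% ± 0.0131, SD, n = 6) and 1.25% to 1.39% of those of a shHuR library (mean 1.32% ± 0.0523, SD, n = 6). The lines did not overlap in this share. Each SD with n = 6, here and below, spans all treatments of a line, so it holds differences between treatments as well as between replicates. In bulk RNA a smaller share of cells that express a gene and less of its RNA per cell cannot be told apart.

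The number of genes past the threshold differed between treatments. In untreated cells 5 of the 34 genes were lower in shHuR (SLC2A3, PFKFB4, PGK1, LDHA and PDK1) and none was higher, against 4.48% lower and 7.98% in either direction among all genes tested. With HNE 11 were lower and none was higher, against 5.04% lower and 8.27% in either direction. That none was higher with HNE did not hold in every alternative fit. With libraries scaled by size alone 11 were lower and 1 was higher (7.87% of all genes called). With no filter on low counts 14 were lower and 1 was higher (9.88%). With H2O2 16 were lower and none was higher, against 4.67% lower and 7.19% in either direction. The same 5 genes passed in all 3 treatments, 6 more passed in 2 treatments (SLC2A1, PFKL, PFKFB3, ALDOA, ENO1 and PGM1) and 5 passed with H2O2 alone (HK2, PFKP, ALDOC, ENO2 and GBE1). None of these last 5 calls was kept in every alternative fit described below. With all libraries used, PFKP, ALDOC and GBE1 were each lost in 4 of 9 alternatives and HK2 in 1. ENO2 was lost only with a library left out. The median log2 fold change of the 34 was -0.11 in untreated cells, -0.20 with HNE and -0.22 with H2O2. For 25 of the 34 the difference was negative in every treatment, and for 2, PDK2 and MPC1, it was positive in every treatment. No gene's difference between treatments passed its own test, which is given with the treatments below. Leaving out 1 library moved these counts and the share of all genes called in the same fit. The counts that follow are of either direction, and with HNE some fits with a library left out also called genes higher in shHuR. In untreated cells 2 passed without shHuR untreated replicate 2 (1.55% of all genes) or shControl untreated replicate 2 (1.48%), 3 without shControl untreated replicate 1 (1.63%) and 9 without either shControl HNE library (12.5% for each). With HNE 5 passed without shHuR HNE replicate 1 (1.63%), 4 without shHuR HNE replicate 2 (0.999%) and 18 without shControl HNE replicate 1 (11.5%). With H2O2 7 passed without shHuR H2O2 replicate 1 (1.76%) and 10 without shControl H2O2 replicate 1 (2.6%).

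**Figure D1:**
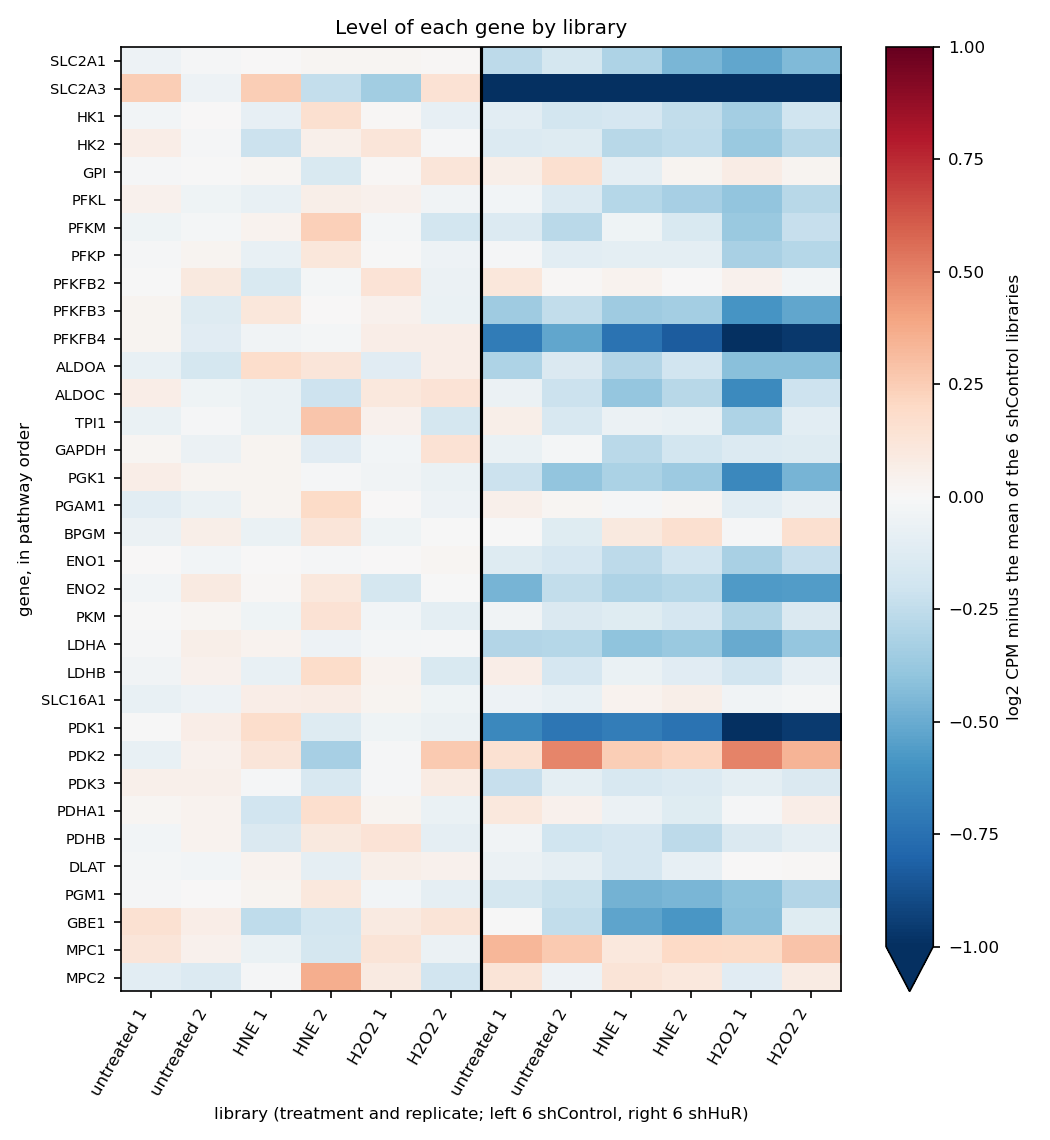
Level of each of the 34 genes in each of the 12 libraries, as log2 CPM minus the mean of the 6 shControl libraries (colour), with genes in pathway order and shControl libraries left of the black line. SLC2A3, PFKFB4 and PDK1 are the darkest blue among the shHuR libraries, PDK2 and MPC1 are red there, and values below -1 share the darkest colour.

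**Figure D2:**
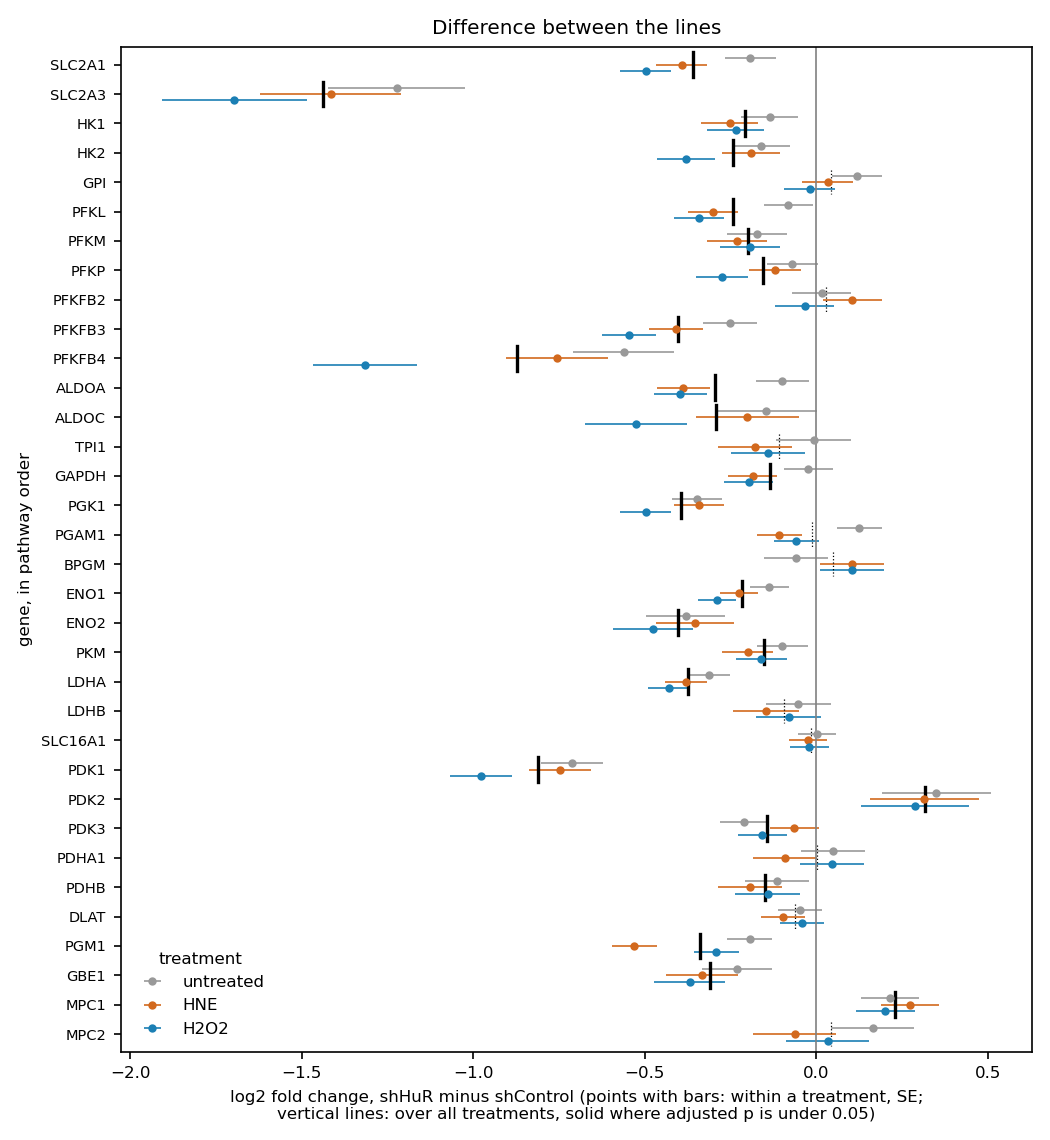
Log2 fold change of shHuR against shControl for each gene within each treatment (points, with SE bars) and over all treatments (vertical lines, solid where the adjusted p is under 0.05). SLC2A3 lies furthest to the left, at -1.44 over all treatments, and PDK2 furthest to the right, at 0.32.

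Both glucose transporters were lower in shHuR. SLC2A1 encodes GLUT1, the main basal glucose transporter of most cultured cells. It measured 73.9 and 75.9 CPM in untreated shControl, 76.5 and 77.4 CPM after HNE, and 77.4 and 77.1 CPM after H2O2. In shHuR SLC2A1 measured 63.5 and 67.5 CPM untreated, 61.7 and 55.5 CPM after HNE, and 53.2 and 56.2 CPM after H2O2. The shControl libraries of SLC2A1 stayed within a narrow band and every shHuR library lay below it, with a log2 fold change of -0.36 over all treatments (SE 0.0511, adjusted p = 5.13e-05). Within treatments the difference of SLC2A1 was -0.19 untreated, which did not pass (adjusted p = 0.127), -0.39 with HNE (adjusted p = 0.00611) and -0.50 with H2O2 (adjusted p = 0.00130). The call with HNE was lost, at an adjusted p of 0.123, without shHuR HNE replicate 2.

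SLC2A3 encodes GLUT3, a transporter with a higher affinity for glucose. In shControl it measured 12.4 and 10.1 CPM untreated, 12.4 and 8.87 CPM after HNE, and 8.23 and 11.6 CPM after H2O2. In shHuR it measured 5.05 and 4.58 CPM untreated, 4.05 and 3.94 CPM after HNE, and 2.94 and 3.17 CPM after H2O2. The lines were far apart in every treatment, and over all treatments SLC2A3 was 2.71 times lower in shHuR (log2 fold change -1.44, SE 0.120, adjusted p = 1.96e-07). On the log2(FPKM + 1) scale of the authors' length-scaled levels (FPKM), which shrinks differences of low values, the difference of SLC2A3 was -0.88. Per length SLC2A3 was a small part of the summed FPKM of the 2 transporters, at 11.4% ± 1.84 (SD, n = 6) in shControl and 5.76% ± 0.753 (SD, n = 6) in shHuR, with no overlap between the lines.

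The hexokinases and phosphofructokinases were each lower by a small step, with shares within each family that overlap between the lines. HK1, the hexokinase of most tissues, ranged from 142 to 168 CPM in shControl (median 149) and from 119 to 139 CPM in shHuR (median 131), with no overlap and a log2 fold change of -0.21 (adjusted p = 0.00287). HK2, the form induced in growing cells, ranged from 130 to 164 CPM in shControl (median 153) and from 117 to 138 CPM in shHuR (median 126), which overlap (-0.24, adjusted p = 0.00166). GPI, which makes fructose 6-phosphate, did not pass (0.04, SE 0.0426, adjusted p = 0.480). The 3 phosphofructokinase genes, the liver, muscle and platelet forms of the committing step, were lower by similar amounts. PFKL ranged from 195 to 214 CPM in shControl and from 157 to 202 CPM in shHuR (-0.24, adjusted p = 0.00115). PFKM ranged from 135 to 181 CPM in shControl and from 119 to 150 CPM in shHuR (-0.20, adjusted p = 0.00421). PFKP ranged from 78.9 to 90.3 CPM in shControl and from 66.6 to 82.4 CPM in shHuR (-0.15, adjusted p = 0.0182). The call of PFKP was lost, at adjusted p-values up to 0.0624, without shHuR H2O2 replicate 1, shHuR H2O2 replicate 2 or shControl H2O2 replicate 1. Over all 21 alternatives its log2 fold change was as small as -0.13. Per length HK2 made up 33.2% ± 1.62 (SD, n = 6) of the summed hexokinase FPKM in shControl and 32.7% ± 0.871 (SD, n = 6) in shHuR. PFKL made up 46.5% ± 1.53 of the phosphofructokinase FPKM in shControl and 45.5% ± 2.21 in shHuR (SD, n = 6 each). Both pairs of shares overlap between the lines.

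The bifunctional PFKFB enzymes make and remove fructose 2,6-bisphosphate, the strongest activator of phosphofructokinase, and their 3 measured genes did not move alike. PFKFB4 measured 33.6 and 30.5 CPM in untreated shControl, 32.2 and 32.4 CPM after HNE, and 34.5 and 34.5 CPM after H2O2. In shHuR PFKFB4 measured 20.3 and 23.0 CPM untreated, 19.7 and 18.5 CPM after HNE, and 10.8 and 16.9 CPM after H2O2. Every shHuR library was lower, and the pair with H2O2 was the lowest of all and the furthest apart from each other. The log2 fold change of PFKFB4 was -0.56 untreated (SE 0.148, adjusted p = 0.0340), -0.76 with HNE (SE 0.149, adjusted p = 0.00811) and -1.32 with H2O2 (SE 0.152, adjusted p = 0.000258). Over all treatments PFKFB4 was 1.83 times lower (-0.87, SE 0.111, adjusted p = 1.81e-05). The untreated call of PFKFB4 was lost, at adjusted p-values up to 0.201, in the 3 limma fits of FPKM and without any 1 of the untreated libraries or of the shHuR HNE libraries, and the call with HNE, at adjusted p-values up to 0.107, in the limma fit with no filter and without either shHuR HNE library.

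PFKFB3, the form with the highest kinase activity relative to phosphatase, measured 89.7 and 80.3 CPM in untreated shControl, 95.0 and 88.2 CPM after HNE, and 90.7 and 83.8 CPM after H2O2. In shHuR PFKFB3 measured 68.5 and 74.1 CPM untreated, 68.6 and 69.5 CPM after HNE, and 58.3 and 61.2 CPM after H2O2. The lines did not overlap (-0.40, SE 0.0523, adjusted p = 2.26e-05). PFKFB2 ranged from 51.2 to 62.6 CPM in shControl and from 55.8 to 61.7 CPM in shHuR, and its difference of 0.03 (SE 0.0490) did not pass (adjusted p = 0.712). The make-up of this family is given as a description, with no test. Shares of a family add up to a fixed whole, so when 1 falls another rises even with no change in its own level. Per length PFKFB4 held 24.6% ± 1.03 of the family's FPKM in shControl and 17.7% ± 2.82 in shHuR, PFKFB2 held 23.0% ± 1.79 and 30.1% ± 2.54, and PFKFB3 held 52.4% ± 1.98 and 52.2% ± 0.795 (SD, n = 6 each). For PFKFB4 every shHuR library was below every shControl library, for PFKFB2 every one was above, and for PFKFB3 the lines overlap.

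The enzymes that split and oxidise the triose phosphates included some of the most abundant transcripts, and the abundant forms differed in size of change. By mean FPKM over the 12 libraries GAPDH was the highest of the 34 genes at 1391, followed by LDHB at 1364, ENO1 at 1109 and TPI1 at 878, while SLC2A3 was the lowest at 1.90. ALDOA, the aldolase of most cells, ranged from 646 to 826 CPM in shControl and from 547 to 662 CPM in shHuR (-0.29, adjusted p = 0.000491). ALDOC, the brain form, ranged from 9.08 to 11.5 CPM and from 6.72 to 10.1 CPM (-0.29, adjusted p = 0.0228), and held 1.35% ± 0.200 of the aldolase FPKM in shControl and 1.34% ± 0.181 in shHuR (SD, n = 6 each). The call of ALDOC was lost, at adjusted p-values up to 0.0655, without shHuR H2O2 replicate 1 or either shControl H2O2 library. Over all 21 alternatives its log2 fold change was as small as -0.21. TPI1, which interconverts the trioses, did not pass (-0.11, SE 0.0598, adjusted p = 0.180). GAPDH, a gene often used as a reference, ranged from 1616 to 1940 CPM in shControl and from 1451 to 1730 CPM in shHuR, and just passed (-0.14, SE 0.0426, adjusted p = 0.0231). That call was lost when libraries were scaled by size alone, in the 3 limma fits of FPKM and without shHuR H2O2 replicate 1, shHuR H2O2 replicate 2, shHuR HNE replicate 1, shControl H2O2 replicate 2 or shControl HNE replicate 1, at adjusted p-values up to 0.137. Over all 21 alternatives, those that kept the call included, the log2 fold change of GAPDH lay between -0.16 and -0.11.

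PGK1, which makes the first ATP of the pathway's second stage, showed the clearest difference of the lower enzymes that are encoded by 1 main gene. PGK1 measured 939 and 911 CPM in untreated shControl, 911 and 888 CPM after HNE, and 875 and 853 CPM after H2O2. In shHuR PGK1 measured 772 and 681 CPM untreated, 721 and 697 CPM after HNE, and 574 and 650 CPM after H2O2. The lines did not overlap, and the H2O2 pair of shHuR was again the lowest (over all treatments -0.40, SE 0.0435, adjusted p = 3.85e-06). By treatment the log2 fold change of PGK1 was -0.35, -0.34 and -0.50 for untreated, HNE and H2O2 (adjusted p = 0.0119, 0.0129 and 0.00133). The untreated call of PGK1 was lost without shHuR untreated replicate 2 or either shControl untreated library (adjusted p up to 0.132), the call with HNE without either shHuR HNE library (adjusted p up to 0.145), and both in the limma fit with no filter. PGAM1, the mutase that follows, did not pass (-0.01, SE 0.0433, adjusted p = 0.842), nor did BPGM, which makes 2,3-bisphosphoglycerate (0.05, SE 0.0545, adjusted p = 0.532).

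ENO1, the enolase of most cells, ranged from 2389 to 2464 CPM in shControl and from 1942 to 2226 CPM in shHuR, with no overlap (-0.22, SE 0.0340, adjusted p = 0.000131). ENO2, the neuronal form, ranged from 14.7 to 17.9 CPM and from 11.2 to 14.1 CPM, also with no overlap (-0.40, SE 0.0652, adjusted p = 0.000180). ENO2 held 0.613% ± 0.0458 of the enolase FPKM in shControl and 0.540% ± 0.0485 in shHuR (SD, n = 6 each), and these shares overlap. PKM, the pyruvate kinase gene, whose M1 and M2 splice forms are summed here, ranged from 1385 to 1636 CPM in shControl and from 1201 to 1443 CPM in shHuR (-0.15, SE 0.0411, adjusted p = 0.00916). GENCODE 29 names 62 pseudogenes after GAPDH, 13 after PGAM1, 6 after LDHA, 5 after PKM and 4 each after TPI1 and ENO1. It also names 3 each after SLC2A3 and LDHB, 2 after ALDOA and 1 each after HK2, PGK1, SLC16A1 and PDHA1. Reads of all these genes can be shared with near copies, so their levels are uncertain.

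**Figure D3:**
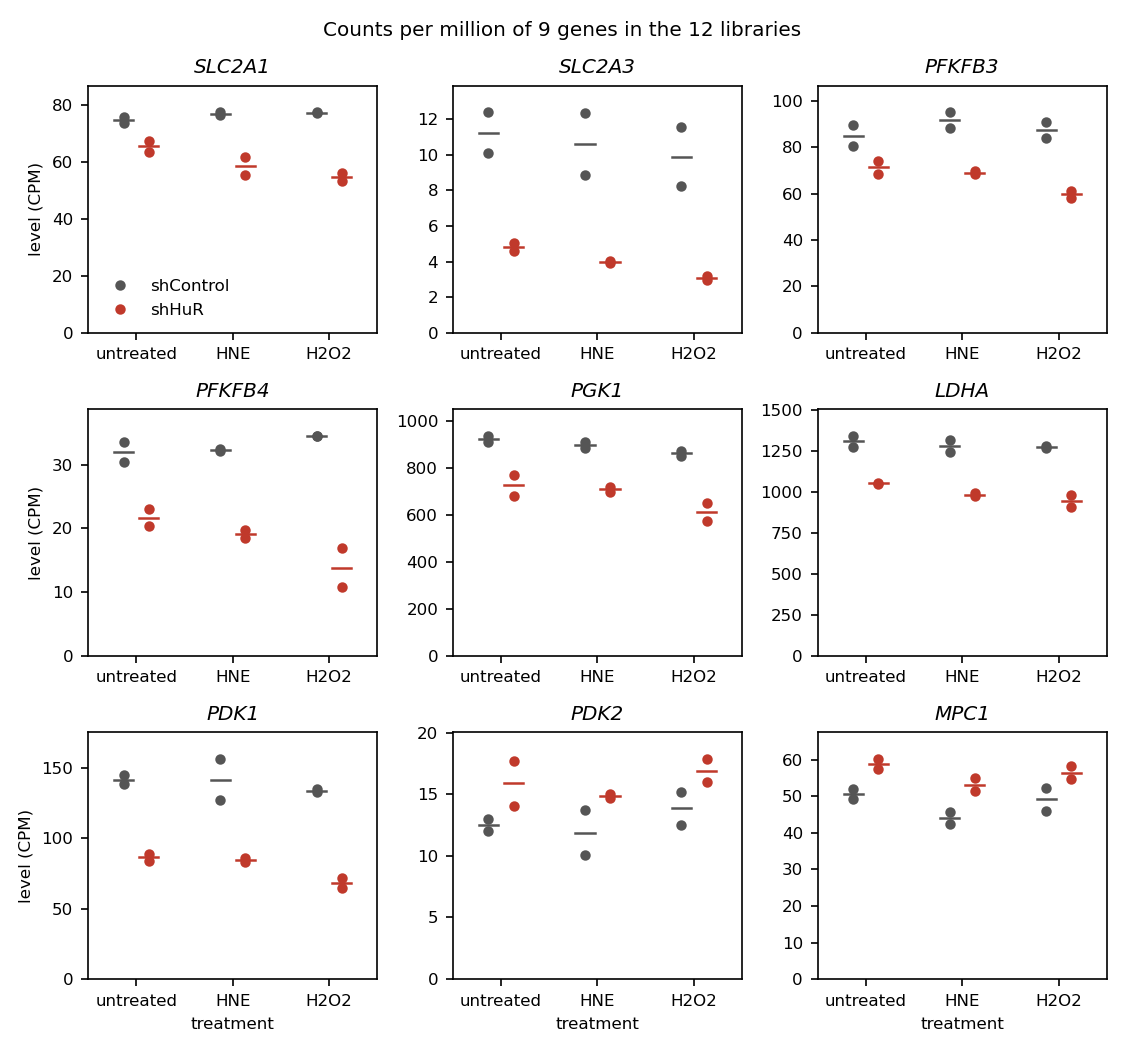
Level in CPM of 9 genes in every library, by treatment, for shControl (grey) and shHuR (red), with points for libraries and bars for the mean of 2. For SLC2A1, SLC2A3, PFKFB3, PFKFB4, PGK1, LDHA and PDK1 every shHuR point lies below every shControl point, and for PDK2 and MPC1 the shHuR points lie higher within each treatment.

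The lactate end of the pathway separated its 2 dehydrogenase genes. LDHA, whose subunit favours the making of lactate, measured 1276 and 1345 CPM in untreated shControl, 1321 and 1243 CPM after HNE, and 1268 and 1280 CPM after H2O2. In shHuR LDHA measured 1052 and 1058 CPM untreated, 974 and 997 CPM after HNE, and 909 and 983 CPM after H2O2. No library of 1 line reached the range of the other, and the log2 fold change of LDHA was -0.37 over all treatments (SE 0.0354, adjusted p = 7.66e-07). By treatment it was -0.31 untreated (adjusted p = 0.00774), -0.38 with HNE (adjusted p = 0.00262) and -0.43 with H2O2 (adjusted p = 0.00103). The untreated call of LDHA was lost without shHuR untreated replicate 2 or shControl untreated replicate 2 (adjusted p up to 0.113). LDHB, whose subunit favours the use of lactate, ranged from 1438 to 1816 CPM in shControl and from 1403 to 1678 CPM in shHuR and did not pass (-0.09, SE 0.0512, adjusted p = 0.181). Per length LDHA held 31.0% ± 2.01 of the FPKM of the pair in shControl and 27.0% ± 1.21 in shHuR (SD, n = 6 each), with overlap. SLC16A1, the lactate and pyruvate transporter MCT1, did not pass (-0.01, SE 0.0318, adjusted p = 0.776). SLC16A3, which fell outside the rule, had 6 to 22 counts in a library and did not pass either (-0.46, SE 0.303, adjusted p = 0.278).

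The pyruvate dehydrogenase kinases moved in opposite directions. PDK1, the kinase gene known as a HIF target, measured 138 and 145 CPM in untreated shControl, 156 and 127 CPM after HNE, and 135 and 133 CPM after H2O2. In shHuR PDK1 measured 88.8 and 84.2 CPM untreated, 85.9 and 83.1 CPM after HNE, and 64.4 and 71.5 CPM after H2O2. The highest shHuR library of PDK1 was well below the lowest shControl library, and PDK1 was 1.76 times lower over all treatments (-0.81, SE 0.0565, adjusted p = 2.46e-08). By treatment the log2 fold change of PDK1 was -0.71 untreated (adjusted p = 0.000480), -0.75 with HNE (adjusted p = 0.000395) and -0.98 with H2O2 (adjusted p = 5.30e-05).

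PDK2, a widely expressed kinase of the same complex, measured 12.0 and 13.0 CPM in untreated shControl, 13.7 and 10.1 CPM after HNE, and 12.5 and 15.2 CPM after H2O2. In shHuR PDK2 measured 14.1 and 17.7 CPM untreated, 15.0 and 14.7 CPM after HNE, and 17.9 and 16.0 CPM after H2O2. The lines of PDK2 were apart within each treatment and overlap over all 12 libraries, and it was higher over all treatments (0.32, SE 0.0852, adjusted p = 0.00935) without passing in any single one. PDK3 was slightly lower (-0.14, SE 0.0421, adjusted p = 0.0153), a call that was lost when libraries were scaled by size alone, without shHuR untreated replicate 1 and in the 3 limma fits of FPKM, where the difference was as small as -0.06. Per length PDK1 held 58.1% ± 2.56 of the FPKM of the 3 kinases in shControl and 43.0% ± 4.22 in shHuR, with every shHuR library below every shControl library. PDK2 went from 12.6% ± 1.96 to 20.7% ± 2.27 and PDK3 from 29.3% ± 1.30 to 36.3% ± 2.78, each with every shHuR library above (SD, n = 6 each). Since the shares of a family add up to a fixed whole, PDK3 had a larger share in shHuR although its own level was not higher there.

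**Figure D4:**
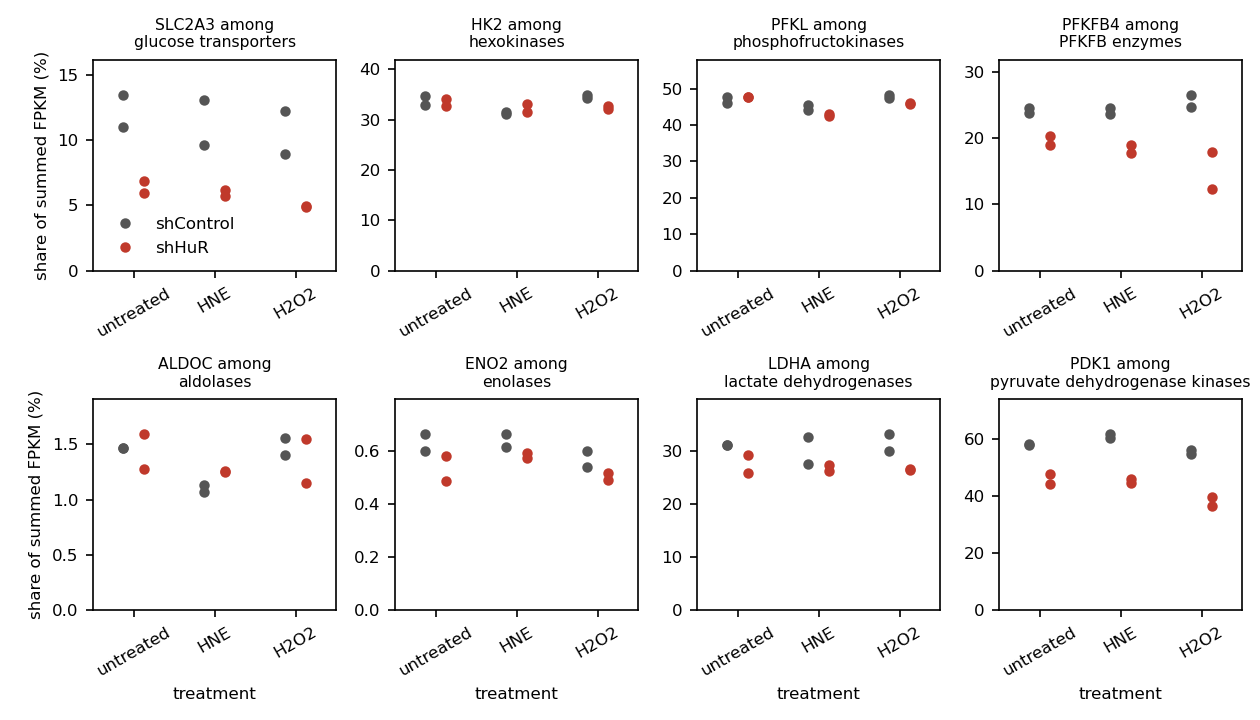
Share of 1 gene in the summed FPKM of its paralogs (percent), per library, by treatment, for shControl (grey) and shHuR (red). The lines are apart for SLC2A3, PFKFB4 and PDK1, and overlap over the 12 libraries for HK2, PFKL, ALDOC, ENO2 and LDHA.

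The genes that bring pyruvate into the mitochondrion and make acetyl-CoA mostly did not pass the test between the lines. MPC1, a subunit of the mitochondrial pyruvate carrier, measured 52.2 and 49.4 CPM in untreated shControl, 45.6 and 42.4 CPM after HNE, and 52.4 and 46.0 CPM after H2O2. In shHuR MPC1 measured 60.3 and 57.5 CPM untreated, 51.4 and 55.1 CPM after HNE, and 54.8 and 58.3 CPM after H2O2. Each shHuR pair lay above its shControl pair, with no adjusted p under 0.0647 within a treatment, and MPC1 was higher over all treatments (0.23, SE 0.0474, adjusted p = 0.00149). MPC2, the partner subunit, did not pass (0.04, SE 0.0681, adjusted p = 0.673). Of the pyruvate dehydrogenase subunits PDHA1 (0.00, SE 0.0524, adjusted p = 0.991) and DLAT (-0.06, SE 0.0361, adjusted p = 0.205) did not pass. PDHB did (-0.15, SE 0.0511, adjusted p = 0.0341), but that call was lost in the 3 limma fits of FPKM and in 7 of the 12 fits with a library left out (without shHuR H2O2 replicate 1, either shHuR HNE library, shHuR untreated replicate 2, shControl H2O2 replicate 1, shControl HNE replicate 2 or shControl untreated replicate 2), at adjusted p-values up to 0.0984. Over all 21 alternatives, those that kept the call included, the difference of PDHB lay between -0.18 and -0.11.

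Both genes of glycogen metabolism in the list were lower. PGM1, which moves phosphate between glucose 1-phosphate and glucose 6-phosphate, measured 133 and 135 CPM in untreated shControl, 137 and 144 CPM after HNE, and 132 and 126 CPM after H2O2. In shHuR PGM1 measured 119 and 115 CPM untreated, 96.7 and 97.7 CPM after HNE, and 101 and 110 CPM after H2O2. The lines did not overlap, and here the HNE pair of shHuR was the lowest, with a log2 fold change of -0.53 with HNE (SE 0.0660, adjusted p = 0.000499) and -0.34 over all treatments (SE 0.0501, adjusted p = 7.73e-05). GBE1, the glycogen branching enzyme, measured 54.4 and 51.4 CPM in untreated shControl, 41.0 and 43.3 CPM after HNE, and 52.1 and 53.6 CPM after H2O2. In shHuR GBE1 measured 48.8 and 41.4 CPM untreated, 34.0 and 32.8 CPM after HNE, and 36.7 and 45.1 CPM after H2O2. Its lines overlap over the 12 libraries but not within a treatment (-0.31, SE 0.0579, adjusted p = 0.000615).

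The treatments by themselves moved few of these genes past the threshold. GBE1 was the exception: over both lines it was lower with HNE than in untreated cells, with a log2 fold change of -0.38 (SE 0.0678, adjusted p = 0.0366), 1 of 34 genes, against 0.247% of all genes tested. In shControl the difference of GBE1 was -0.33 (adjusted p = 0.264) and in shHuR -0.43 (adjusted p = 0.162). The call over both lines was lost in the 3 limma fits, with the replicate number as a block, and without either shHuR HNE library, either shHuR untreated library, either shControl untreated library or shControl HNE replicate 1, at adjusted p-values up to 0.223. Over all 21 alternatives, those that kept the call included, the log2 fold change of GBE1 lay between -0.42 and -0.32.

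Within 1 line no gene of the 34 passed by edgeR's quasi-likelihood test. For HNE in shControl 0 of 34 passed, against 0.0187% of all genes, and 6 had an unadjusted p under 0.05, against 11.7% of all genes (DESeq2 called 0). Those with higher values with HNE were ALDOA (0.27), PGAM1 (0.20), SLC16A1 (0.13) and MPC2 (0.30), and those with lower values GBE1 (-0.33) and MPC1 (-0.20). For HNE in shHuR 0 of 34 passed, against 0.075% of all genes, and 5 had an unadjusted p under 0.05, all with lower values, against 8.95% of all genes (DESeq2 called 1, GBE1). For H2O2 in shControl 0 of 34 passed, against 0% of all genes, and 0 had an unadjusted p under 0.05, against 4.34% (DESeq2 called 0). For H2O2 in shHuR 0 of 34 passed, against 0% of all genes, and 13 had an unadjusted p under 0.05, all with lower values, against 3.37% of all genes (DESeq2 called 0). The lowest unadjusted p among the 13 was that of PFKFB4, at -0.64 (SE 0.154, unadjusted p = 0.000926 by edgeR, adjusted p = 1.00), followed by PDK1 at -0.35 (SE 0.0911, unadjusted p = 0.00192 by edgeR). For H2O2 over both lines 0 of 34 passed, against 0% of all genes, and 7 had an unadjusted p under 0.05, against 5.45% (DESeq2 called 0).

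**Figure D5:**
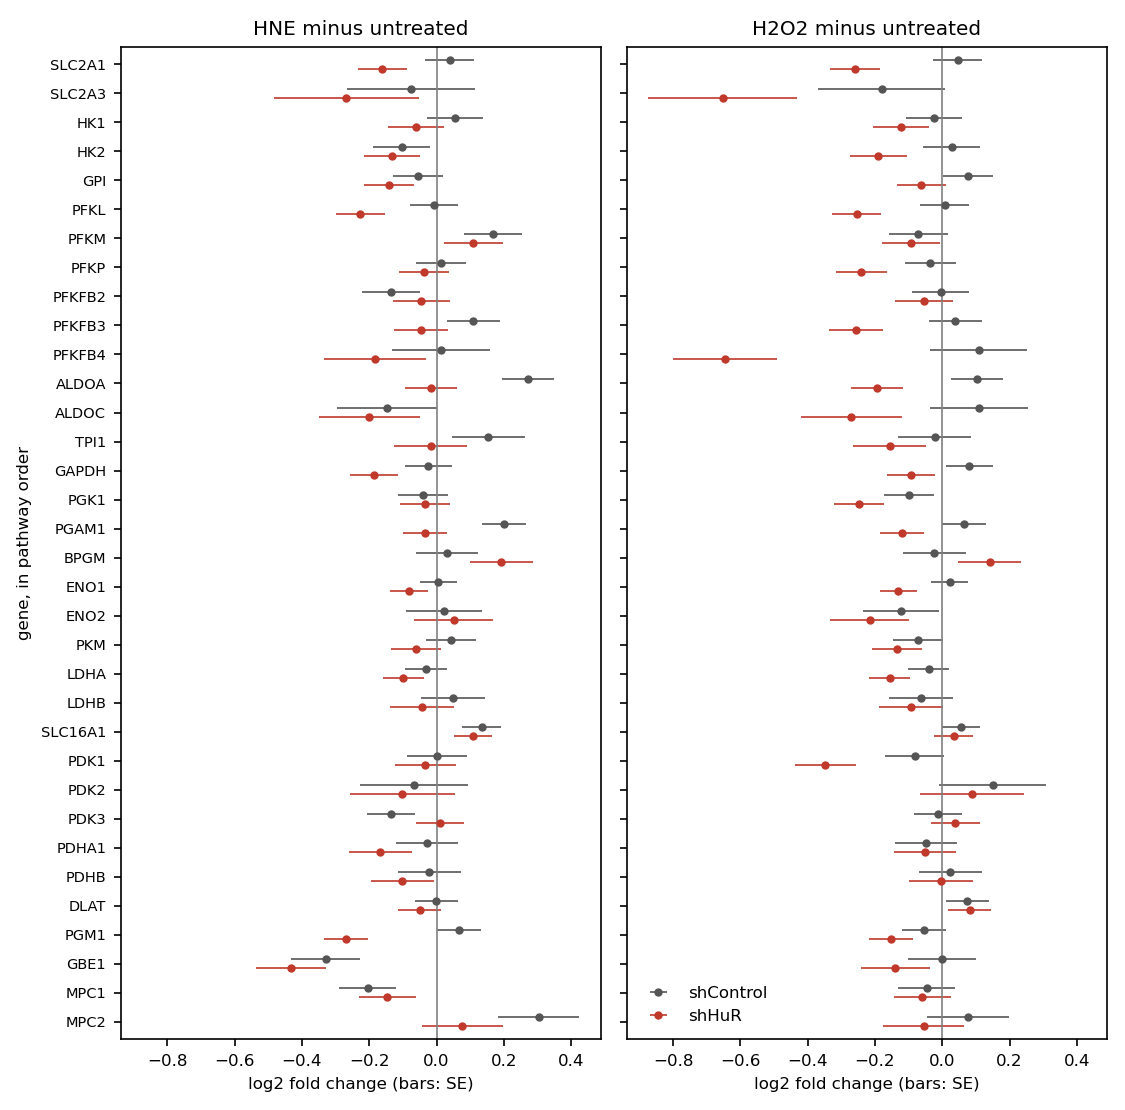
Log2 fold change of each gene with HNE (left) and H2O2 (right) against untreated cells, in shControl (grey) and shHuR (red), with SE bars. With H2O2 the values of PFKFB4, SLC2A3 and PDK1 in shHuR lie furthest to the left, and with HNE those of GBE1 in both lines.

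Whether a treatment acted differently in the 2 lines was tested as an interaction, which is also the test of whether the line difference changed with treatment. For HNE 0 of 34 passed, against 0% of all genes, and 3 had an unadjusted p under 0.05, against 6.73% of all genes (DESeq2 called 0). These were PGM1 (-0.34, SE 0.0930, adjusted p = 0.712), ALDOA (-0.29) and PGAM1 (-0.23), and no adjusted p among the 34 was lower than that of PGM1. For H2O2 0 of 34 passed, against 0% of all genes, and 5 had an unadjusted p under 0.05, against 3.62% of all genes (DESeq2 called 0). These were PFKFB4 (-0.75, SE 0.211, adjusted p = 1.00), SLC2A1 (-0.31), ALDOA (-0.30), PFKFB3 (-0.29) and PFKL (-0.26). The larger line differences seen with H2O2 for these genes were therefore not shown to differ from those in untreated cells.

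Other genes of glucose metabolism came from a list of 53, of which 46 could be tested. Over all treatments 15 of the 46 passed (32.6%), 7 higher (15.2%) and 8 lower (17.4%) in shHuR, with a median of 0.00. These shares are near those of all genes tested, 29.9% in either direction, 14.1% higher and 15.9% lower. TXNIP, whose product limits glucose uptake and is known to be induced by glucose, was higher, at 20.9 to 21.0 CPM in untreated shHuR against 9.98 to 10.7 CPM in untreated shControl (over all treatments 0.97, SE 0.0641, adjusted p = 1.46e-08, with every shHuR library above). LDHC, the testis form of lactate dehydrogenase, was also higher (0.53, SE 0.122, adjusted p = 0.00346). ENO3, the muscle enolase, was lower (-0.99, SE 0.165, adjusted p = 0.000241). PCK1, which starts the making of glucose from oxaloacetate, just passed as lower, at a level of under 1 CPM in every library with overlap between the lines (-1.20, SE 0.437, adjusted p = 0.0473).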

How the data were processed

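RNA from HEK293T cells was depleted of ribosomal RNA and sequenced in 12 libraries as strand-specific single-end reads, per the labels' protocols. Estimated counts and FPKM values, each by gene symbol with 1 column per library, were deposited by the authors. The submitters' processing notes name cutadapt 1.8, Bowtie2 2.2, TopHat2 2.1, Cufflinks 2.2, Cuffnorm and Cuffdiff, and the build GRCh37 (hg19). Whether counting used strand is not given in the sources used here. Of the 34 genes, 7 overlap an exon of another gene on the same strand and 18 on the opposite strand in GENCODE 29, so some of their reads may belong to the other gene. The 7 are SLC2A1, GPI, PFKP, PFKFB4, ALDOA, PGK1 and LDHB.

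Counts were rounded and fitted in edgeR 4.0.16 (R 4.3.3) with TMM factors (0.965 to 1.03), filterByExpr with a minimum count of 10, and the quasi-likelihood test. Contrasts within a treatment or line and interactions used 6 group means. The line over all treatments was fitted with treatment as a covariate, and a treatment over both lines with line as a covariate in 8 libraries. The script was tested on simulated data. CPM use TMM-scaled library sizes, and FPKM as deposited by the authors were used to compare levels between genes and for paralog shares. Alternatives were DESeq2 1.42.0, limma 3.58.1 on log2 FPKM with a pseudocount of 1 or 0.1, other scalings and filters, a replicate block, and each library left out. Replicate libraries differed beyond sampling noise (chi-square per degree of freedom 2.93 to 21.5). The value was highest between the shControl HNE libraries, at 21.5, followed by shControl H2O2 at 10.4 and shHuR untreated at 9.12. Genes with a count numbered 17603 in shControl HNE replicate 1 and 17371 in shControl H2O2 replicate 1. The other libraries had 18130 to 18380 such genes. Both of these shControl libraries enter the comparison of the lines within their treatment. Depth was 24855946 to 29907258 counts per library.

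The genes and lists were chosen with earlier results of these data known, so no test was made over a list. All 35 listed genes are named, with ELAVL1 and, of the other glucose metabolism genes and of a HIF list, those past the threshold with the 4 largest differences over all treatments. Promoter windows are from RefSeq (GRCh38.p14) and are described by sequence alone, since the counts rest on another build.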

Additional observations from a re-analysis of the deposited data

How the results depend on the processing

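Over all treatments 19 of the 24 calls were kept in all 21 alternatives, the exceptions being PFKP, ALDOC, GAPDH, PDK3 and PDHB, and the count was 20 to 24 with a library left out. In untreated cells 2 of 5 calls were kept (SLC2A3 and PDK1), with HNE 4 of 11 (SLC2A3, LDHA, PDK1 and PGM1) and with H2O2 7 of 16 (SLC2A1, SLC2A3, PFKFB3, PFKFB4, PGK1, LDHA and PDK1). No value changed sign at a call. With a library left out the line counts ranged from 2 to 9 untreated, 4 to 18 with HNE and 7 to 17 with H2O2. With limma on log2(FPKM + 1) and no filter they were 3, 6 and 10 (3.47%, 3.43% and 3.23% of all genes). For HNE over both lines the count was 0 with the replicate block and in the 3 limma fits, and 0 to 1 with a library left out. For HNE in shControl it was 1 (ALDOA) with no filter on low counts (1.58% of all genes called) and 0 to 2 with a library left out, 2 (PGAM1 and MPC2) without shControl HNE replicate 1, where 5.24% of all genes were called. For HNE in shHuR it was 1 (GBE1) with DESeq2 (0.669%) and with no filter (0.949%). With no filter it was also 2 (PFKFB4 and PDK1) for H2O2 in shHuR (0.158%), 2 (PGK1 and PDK1) for H2O2 over both lines (0.571%) and 1 (PFKFB4) for the H2O2 interaction (0.173%).

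Samples with the same replicate number did not deviate together (r from -0.11 to 0.13 over 15 pairs of groups, 2 of them over 0.1), so the numbers were not taken as pairs. With the replicate block the line counts were 5 untreated, 11 with HNE, 13 with H2O2 and 24 over all treatments. Scaling by library size alone moved the median of all genes by 0.02.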

Other observations

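Genes known as targets or regulators of the hypoxia-inducible factors were measured beside the glycolysis genes. Of 24 listed genes 21 could be tested, and over all treatments 15 (71.4%) passed, against 29.9% of all genes tested. In shHuR 13 (61.9%) were lower and 2 (9.52%) were higher, against 15.9% lower and 14.1% higher among all genes tested. Named next are the 4 genes past the threshold with the largest differences, and the 2 higher genes are not among them. MIR210HG, the host gene of a microRNA induced by low oxygen, measured 8.82 and 9.45 CPM in untreated shControl and 6.27 and 4.51 CPM in untreated shHuR, and was lower over all treatments (-1.14, SE 0.159, adjusted p = 4.50e-05 by edgeR's quasi-likelihood test). EGLN3, a prolyl hydroxylase that marks HIF proteins for degradation (-0.74, adjusted p = 1.46e-06), BNIP3, a mitophagy receptor (-0.72, adjusted p = 4.64e-07), and P4HA1, a collagen prolyl hydroxylase (-0.63, adjusted p = 5.54e-07), were lower as well, each with every shHuR library below every shControl library. Of the 4 listed HIF subunits, named after their values were seen, 3 could be tested and did not pass: HIF1A differed by 0.04 (SE 0.0556, adjusted p = 0.633), EPAS1 by -0.02 (SE 0.102, adjusted p = 0.904) and ARNT by 0.01 (SE 0.0510, adjusted p = 0.899). HIF3A did not pass the filter on low counts. This list was chosen with earlier results of these data known, and no link between it and the glycolysis genes was tested.

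The pentamer ATTTA, part of the AU-rich elements that HuR is known to bind, was counted in the longest 3′ untranslated region of each gene (GENCODE 29). It was present in 25 of the 34 glycolysis genes (73.5%) and in 68.4% of 17731 genes. Of the genes lower in shHuR over all treatments 14 of 22 held it, and of the others 11 of 12. PDK1 had 32 copies in 12700 bases and SLC2A3 3 copies in 2183 bases, while PFKFB4 had 0 in 2063 bases. The counts describe letters and no binding was measured here.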
